A study of Mus musculus with 12 samples.

Results

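Inflammasome and pyroptosis genes, 9 in number (Aim2, Casp1, Casp4, Gsdmd, Pycard, Nlrp3, Nlrc3, Il18 and Ninj1), were followed among the 55414 gene records counted in splenic CD4+ T cells. The genes were chosen by name, with no threshold, and with earlier results of these libraries in view, in which fresh LIP cells had higher levels of Aim2, Casp1 and Gsdmd than fresh CTL cells. For that reason the day 0 values of LIP against CTL are given below as a description without a test. All groups were wild-type BALB/c mice aged 18 weeks. The CTL group had healthy animals without a ligature, and the LIP group had ligature-induced periodontitis, in which a silk thread tied around an upper molar inflames the gum. CD4+ T cells were purified from the spleen and either lysed uncultured (day 0) or cultured until day 2 with IL-2 and with antibodies against TCRβ and CD28, which stand in for antigen and costimulation. There were 3 libraries for each of the 4 groups. The labels number the libraries but do not say whether each was 1 mouse, so the p-values measure the spread between libraries, which may be technical. For the costimulating antibody the treatment labels of day 2 give CD28 as the target in CTL 92 and LIP 90, CD29 in CTL 93 and LIP 96, and CD30 in both libraries numbered 97, whereas the common protocol gives CD28 alone. Whether the antibody differed was not tested.

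Inflammasomes are protein complexes that form when a sensor meets a danger signal. The sensor AIM2 binds double-stranded DNA in the cytosol and NLRP3 responds to many kinds of membrane and ion stress. Both gather the adaptor ASC, which Pycard encodes, and ASC activates caspase-1. Caspase-1 cuts the precursor of IL-18 and opens gasdermin D, which forms pores in the plasma membrane, whereas the product of Casp4 (caspase-11 in the mouse) binds bacterial lipopolysaccharide directly and opens gasdermin D too. NINJ1 then ruptures the membrane of the dying cell. NLRC3 belongs to the same receptor family as NLRP3 but is known as an inhibitor of innate and T cell activation. The complexes are best known in myeloid cells, and T cells use some of the same proteins.

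The libraries held between 6249094 and 7845715 counts on day 0 and between 8691745 and 12866751 on day 2, and a count of 3 equalled 0.269 to 0.452 CPM, the unit used here for counts scaled to a common library total with TMM factors. Intervals and limits of this kind cover counting error only. Of the 9 genes, 7 had enough counts for testing in every comparison, whereas Il18 and Nlrp3 did not. The defining genes of CD4+ T cells (Cd3e, Cd3d, Cd4 and Trac) summed to between 1256 and 1695 CPM in every library, and of the 10 myeloid genes S100a8 and S100a9 were listed at 0 in all of them. Other myeloid genes were present in every fresh library at low levels (Itgam at 1.38 to 5.21 CPM and Csf1r at 1.81 to 4.01 CPM), and 4 NK cell genes summed to 13.1 to 28.9 CPM there. CTL 89 of day 0 stood apart from the other libraries of its day by a low sum of 7 effector or memory T cell genes (515 CPM against 817 to 1010.0). LIP 90 of day 2 stood apart as well, since leaving it out raised the number of genes with an adjusted p under 0.05 between LIP and CTL on day 2 from 0 to 2014. Where leaving out a library moved the difference of a tested gene of the 9 between LIP and CTL, or between the days within a group, by over 1.5 times, the value without it or the range over all libraries left out is given.

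Casp1 (ENSMUSG00000025888, chr9:5298508-5307290, plus strand) and Casp4 (ENSMUSG00000033538, chr9:5308828-5336783, plus strand) are neighbours on chromosome 9 in GRCm39, head to tail with a gap of 1537 bases. The bases before their start sites are shown because the 2 genes moved in opposite directions in culture, and those of Nlrc3 (ENSMUSG00000049871, chr16:3762871-3794496, minus strand) because it was the gene with the most counts. They were taken from RefSeq promoter windows of the GRCm38.p6 build, each found once and exactly in GRCm39, and they are the reference sequence and not that of BALB/c. The windows run from 250 bases before to 50 bases after a start site, and the 250 bases before it are printed.
Casp1, chr9:5298267-5298516, plus strand: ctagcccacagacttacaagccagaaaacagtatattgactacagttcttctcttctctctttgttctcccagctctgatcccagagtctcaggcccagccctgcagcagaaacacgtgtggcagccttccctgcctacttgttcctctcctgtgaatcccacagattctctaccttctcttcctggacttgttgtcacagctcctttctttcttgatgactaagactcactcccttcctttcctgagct
Casp4, chr9:5308599-5308848, plus strand: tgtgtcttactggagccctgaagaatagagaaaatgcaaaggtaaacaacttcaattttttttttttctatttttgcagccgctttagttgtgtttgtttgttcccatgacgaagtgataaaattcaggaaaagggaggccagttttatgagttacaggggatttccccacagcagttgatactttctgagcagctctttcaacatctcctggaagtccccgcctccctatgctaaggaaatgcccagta
Nlrc3, chr16:3794497-3794746, minus strand: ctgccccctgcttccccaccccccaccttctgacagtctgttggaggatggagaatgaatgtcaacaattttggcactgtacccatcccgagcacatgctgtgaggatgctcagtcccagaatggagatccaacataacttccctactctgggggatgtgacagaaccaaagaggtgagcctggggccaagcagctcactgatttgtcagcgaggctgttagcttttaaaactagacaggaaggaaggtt
The table held 10 windows for 8 of the 9 genes (2 overlapping ones for Casp4 and 2 for Nlrp3) and was searched on both strands for the interferon-stimulated response element (GAAA, any 2 bases, GAAA), the gamma-activated site (TTCNNNGAA) and the AP-1 site (TGANTCA). In 0 of these 10 windows was any of the 3 motifs found, so no base is in capitals. Among all 32851 windows, 3.44%, 8.30% and 7.81% held them, respectively, so windows without a match are common, and the result says only that these letters are absent from these windows.

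Nlrc3 was the most abundant of the 9 genes in fresh cells and fell in culture. On day 0 it was counted at 185, 187 and 187 CPM in CTL 88, 89 and 94, and at 205, 222 and 239 CPM in LIP 92, 93 and 94. On day 2 the values were 70.2, 66.2 and 71.8 CPM in CTL 92, 93 and 97, and 61.6, 44.6 and 56.4 CPM in LIP 90, 96 and 97. The LIP libraries thus lay above every CTL library on day 0 and below every CTL library on day 2, and both culture groups lay far below the fresh cells. The fall from day 0 to day 2 was 2.73-fold in CTL (log2 fold change -1.45, standard error 0.088, quasi-likelihood test of edgeR, Benjamini-Hochberg adjusted p = 1.24e-07) and 4.13-fold in LIP (-2.05, 0.14, adjusted p = 5.61e-06). LIP minus CTL was 0.26 on the log2 scale on day 0 (standard error 0.073) and -0.37 on day 2 (standard error 0.14, unadjusted p = 0.0282, adjusted p = 0.250). Without LIP 90 the day 2 difference was -0.45 (edgeR adjusted p = 0.0574) and without LIP 96 it was -0.23 (adjusted p = 0.610). The regulatory T cell gene Ikzf2 had the same order of groups, at 229.7 to 250.5 CPM in LIP against 125 to 196 CPM in CTL on day 0 and at 77.4 to 93.6 against 106 to 126 CPM on day 2. Of the 4 regulatory T cell genes listed, Ikzf2 and Il2ra were higher in LIP without overlap on day 0, where 9.66% of all genes were. Foxp3 overlapped on day 0, and Ctla4 differed by -0.22 on the log2 scale. On day 2 Ikzf2 and Foxp3 were lower without overlap, where 11.3% of all genes were. The sum of the 4 was 435 to 465 CPM in LIP against 297 to 420.4 CPM in CTL on day 0. It overlapped on day 2, where most of it was Il2ra (1299 to 1851 CPM in CTL), also listed as an activation gene. The part of these cells in the values of Nlrc3 was not tested. The difference between the days, which uses the day 0 values, was -0.61 (standard error 0.16) and is given without a test. The counts of Nlrc3 were estimates with fractions in 12 of 12 libraries. Its end overlaps Cluap1 on the opposite strand, which was counted at 14.3 to 18.4 CPM as group means and changed little between the days (log2 0.11 in CTL and 0.08 in LIP).

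**Figure D1:**
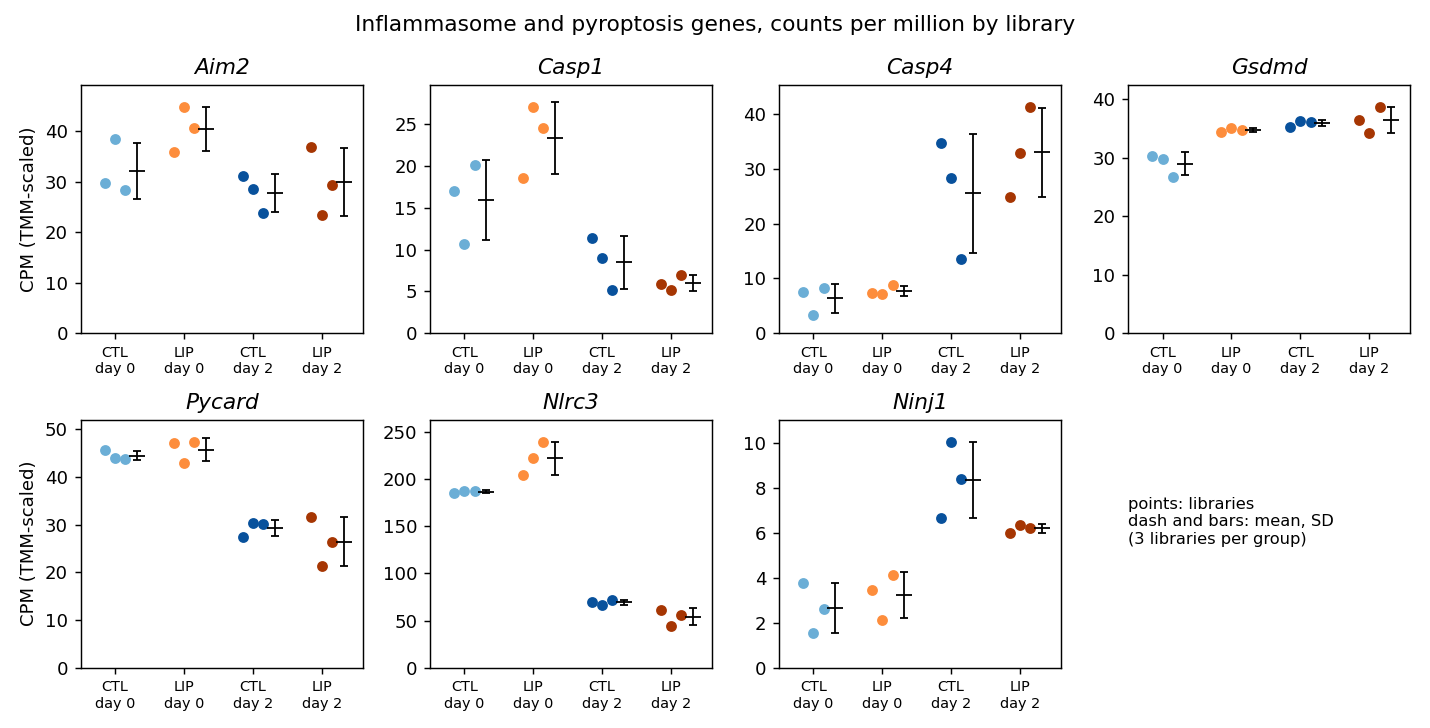
CPM (scaled by TMM over the 12 libraries; vertical axis from 0) of the 7 genes with enough counts, by group. Each point is 1 library, and the dash with bars is the mean with SD of 3 libraries; Nlrc3, Casp1 and Pycard lie lower on day 2, Casp4 and Ninj1 higher, and Gsdmd stays between 26.7 and 38.6 CPM.

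The 2 inflammatory caspases went opposite ways in culture. Casp1, the protease of the canonical inflammasome, was at 17.03, 10.7 and 20.1 CPM in CTL 88, 89 and 94 on day 0 and at 18.6, 27.0 and 24.6 CPM in LIP 92, 93 and 94. On day 2 it was at 11.4, 8.96 and 5.11 CPM in CTL 92, 93 and 97 and at 5.91, 5.15 and 7.00 CPM in LIP 90, 96 and 97. CTL 89 had the lowest fresh value and overlapped the cultured CTL libraries, whereas in LIP every cultured library lay below every fresh one. Casp1 fell 3.94-fold in LIP (log2 fold change -1.98, standard error 0.20, edgeR adjusted p = 4.17e-05) and 1.89-fold in CTL (-0.92, 0.30, adjusted p = 0.0168). The call in CTL was lost without CTL 88 (edgeR adjusted p = 0.0509) or without CTL 94 (0.0730). On day 0, LIP minus CTL was 0.56 (standard error 0.21) and the groups overlapped. It was 0.33 without CTL 89, the library with few effector or memory transcripts; the part of these cells in the difference was not tested. On day 2, LIP minus CTL was -0.52 (standard error 0.30, edgeR adjusted p = 0.428), again with overlap. It was -0.24 without CTL 92 and -0.77 without CTL 97.

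Casp4, the receptor protease for intracellular lipopolysaccharide, was at 7.53, 3.25 and 8.16 CPM in CTL 88, 89 and 94 on day 0 and at 7.30, 7.18 and 8.82 CPM in LIP 92, 93 and 94. In culture the values were 34.8, 28.3 and 13.5 CPM in CTL 92, 93 and 97 and 24.9, 32.9 and 41.2 CPM in LIP 90, 96 and 97. All 6 cultured libraries lay above all 6 fresh ones, and the CTL and LIP groups overlapped on both days. The rise was 4.04-fold in CTL (log2 fold change 2.01, standard error 0.37, edgeR adjusted p = 0.000578) and 4.18-fold in LIP (2.07, 0.21, adjusted p = 4.76e-05). LIP minus CTL was 0.32 on day 0 (standard error 0.29), with -0.01 without CTL 89 and 0.57 without CTL 94. On day 2 it was 0.36 (standard error 0.32, edgeR adjusted p = 0.623). It was 0.06 without CTL 97, the lowest library of that day, 0.17 without LIP 97, 0.55 without LIP 90 and 0.65 without CTL 92. The counts of both caspases had no fractional part in any of the 12 libraries.

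Ninj1 (ENSMUSG00000037966, chr13:49340945-49349743, plus strand), the gene of the membrane rupture protein, was low in fresh cells. It was at 3.77, 1.57 and 2.63 CPM in CTL 88, 89 and 94 and at 3.45, 2.11 and 4.14 CPM in LIP 92, 93 and 94, from 13 to 31 counts. Cultured cells had 6.66, 10.0 and 8.40 CPM in CTL 92, 93 and 97 and 6.00, 6.37 and 6.22 CPM in LIP 90, 96 and 97. Every cultured library lay above every fresh one, and on day 2 every LIP library lay below every CTL library. Ninj1 rose 3.14-fold in CTL (log2 fold change 1.65, standard error 0.32, edgeR adjusted p = 0.000769) and 1.89-fold in LIP (0.92, 0.26, adjusted p = 0.0116). LIP minus CTL was 0.32 on day 0 (standard error 0.37), with 0.03 without CTL 89, 0.09 without LIP 94, 0.54 without LIP 93 and 0.63 without CTL 88. On day 2 it was -0.44 (standard error 0.21, edgeR adjusted p = 0.343), and -0.29 without CTL 93.

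The adaptor gene Pycard (ENSMUSG00000030793, chr7:127588558-127593039, minus strand) was at 45.7, 44.1 and 43.8 CPM in CTL 88, 89 and 94 and at 47.1, 42.9 and 47.3 CPM in LIP 92, 93 and 94 on day 0. On day 2 it was at 27.5, 30.5 and 30.1 CPM in CTL 92, 93 and 97 and at 31.6, 21.3 and 26.4 CPM in LIP 90, 96 and 97. The fresh groups overlapped, the cultured groups overlapped, and no cultured library reached a fresh one. Pycard fell 1.54-fold in CTL (log2 fold change -0.62, standard error 0.10, edgeR adjusted p = 0.000261) and 1.75-fold in LIP (-0.81, 0.15, adjusted p = 0.00152). LIP minus CTL was 0.05 on day 0 (standard error 0.084, 0.02 to 0.09 on leaving out LIP 92, 93 or 94) and -0.16 on day 2 (standard error 0.16, edgeR adjusted p = 0.657). The day 2 difference was -0.29 without LIP 90 and -0.01 without LIP 96. Pycard had fractional counts in 12 of 12 libraries and shares its start with Gm45205 on the opposite strand, which was at 11.1 CPM as the mean of CTL on day 0 and 2.45 CPM on day 2. Its part in the fall of Pycard was not tested.

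Gsdmd (ENSMUSG00000022575, chr15:75733974-75739257, plus strand), the pore-forming effector of pyroptosis, was the steadiest of the 7 genes, with an SD within groups of 0.067 on the log2 scale against 0.14 to 0.52 for the others. It was at 30.3, 29.9 and 26.7 CPM in CTL 88, 89 and 94 and at 34.5, 35.2 and 34.7 CPM in LIP 92, 93 and 94 on day 0, so that the fresh groups did not overlap. After culture it was at 35.3, 36.3 and 36.1 CPM in CTL 92, 93 and 97 and at 36.5, 34.2 and 38.6 CPM in LIP 90, 96 and 97. The cultured groups overlapped each other, and the cultured CTL libraries lay above the fresh ones. LIP minus CTL was 0.27 on day 0 (standard error 0.094) and 0.01 on day 2 (standard error 0.12, edgeR adjusted p = 0.982), with -0.03 to 0.07 on leaving out each library of day 2. Between the days Gsdmd rose 1.22-fold in CTL (log2 fold change 0.29, standard error 0.11, edgeR adjusted p = 0.0294), but this call was lost with DESeq2 (adjusted p = 0.0638) and without CTL 88, 89 or 94 of day 0 or CTL 93 of day 2 (edgeR adjusted p between 0.0523 and 0.0947). In LIP the log2 fold change was 0.05 (standard error 0.10, edgeR adjusted p = 0.672), with 0.03 without LIP 97 and 0.11 without LIP 96.

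Aim2 (ENSMUSG00000037860, chr1:173178445-173293930, plus strand), the DNA sensor, was at 29.7, 38.5 and 28.3 CPM in CTL 88, 89 and 94 and at 36.0, 44.7 and 40.6 CPM in LIP 92, 93 and 94 on day 0. On day 2 it was at 31.1, 28.5 and 23.7 CPM in CTL 92, 93 and 97 and at 37.0, 23.5 and 29.3 CPM in LIP 90, 96 and 97. The groups overlapped on each day, and CTL 89, the lowest library of day 0 for both caspases, was the highest of the 3 fresh CTL libraries for Aim2. LIP minus CTL was 0.33 on day 0 (standard error 0.13), 0.48 without CTL 89, and 0.09 on day 2 (standard error 0.19, edgeR adjusted p = 0.835). The day 2 difference was -0.06 without LIP 90, -0.0025 without CTL 97, 0.18 without CTL 92 and 0.26 without LIP 96. From day 0 to day 2 the log2 fold change was -0.23 in CTL (standard error 0.15, edgeR adjusted p = 0.186), with -0.08 without CTL 89 and -0.13 without CTL 97. In LIP it was -0.45 (standard error 0.17, edgeR adjusted p = 0.0451), and -0.28 without LIP 96. The call in LIP was lost with RLE normalization (edgeR adjusted p = 0.0517), without a filter on low counts (0.0775), with DESeq2 (0.116) and without LIP 92, 93, 94, 96 or 97 (0.0534 to 0.157), whereas it was 0.00133 without LIP 90.

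Il18 (ENSMUSG00000039217, chr9:50466081-50493633, plus strand), the cytokine gene of the set, was near the detection limit. Its counts were 2, 0 and 1 in CTL 88, 89 and 94 on day 0 compared with 1, 1 and 6 in LIP 92, 93 and 94, then 1, 1 and 0 in CTL 92, 93 and 97 on day 2 compared with 8, 5 and 7 in LIP 90, 96 and 97. The cultured LIP libraries lay above all cultured CTL libraries, whereas the fresh groups overlapped. As a ratio of counts over library totals, LIP over CTL was 8.40 on day 2 (20 against 2 counts, exact 95% interval 2.04 to 74.2) and 2.90 on day 0 (8 against 3 counts, 0.695 to 16.96). These intervals treat the libraries of a group as 1 pool and do not cover the spread between them, and so few counts were not tested in the fit. B cell transcripts (Ms4a1, Cd79a, Cd79b and Pax5) summed to 0.806, 23.4 and 23.6 CPM in LIP 90, 96 and 97 and to 2.33, 2.51 and 13.9 CPM in CTL 92, 93 and 97. The 4 NK cell genes, mostly Klrk1, summed to 13.95 to 33.0 CPM in LIP against 4.66 to 7.19 CPM in CTL on day 2. The 10 myeloid genes, mostly Mpeg1 in LIP, summed to 21.4 to 52.1 against 6.21 to 11.8 CPM. The sums of both lists thus lay apart in the same direction as Il18. Of the 2 myeloid genes tested on day 2, Mpeg1 was higher in LIP, whereas Cd68 differed by -0.58 on the log2 scale, with overlap. The part of other cells in the Il18 counts was not tested. Nlrp3 (ENSMUSG00000032691, chr11:59432394-59457782, plus strand), a sensor best known from myeloid cells, had 1 count in CTL 94 of day 0, in CTL 92 and CTL 93 of day 2 and in LIP 97 of day 2, and 0 in the other 8 libraries. Each of these values is under the limit of 3 counts, so Nlrp3 RNA was not detectable at this depth.

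**Figure D2:**
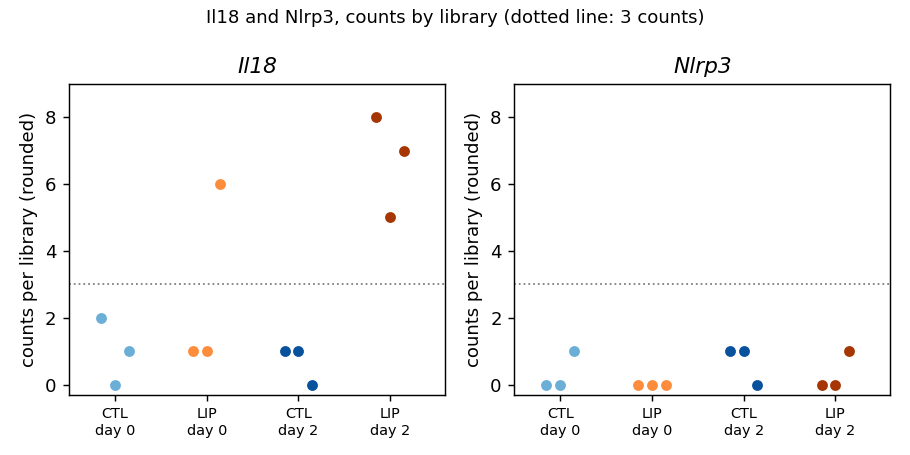
Rounded counts per library (vertical axis) of Il18 and Nlrp3 by group, 1 point per library, with a dotted line at 3 counts. Il18 reaches 5 to 8 counts in the cultured LIP libraries and 0 or 1 in the cultured CTL libraries, and Nlrp3 stays at 0 or 1.

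Levels of different genes were compared per kilobase of the canonical transcript. In fresh CTL cells the order was Nlrc3 (31.1 ± 0.228 CPM per kb, SD, n = 3), Aim2 (15.5 ± 2.67), Gsdmd (14.7 ± 0.989), Pycard (10.8 ± 0.243), Casp1 (10.4 ± 3.13), Casp4 (4.38 ± 1.85), Ninj1 (1.93 ± 0.800), Il18 (0.106 ± 0.111) and Nlrp3 (0.0109 ± 0.0189). The ranges of the neighbours Aim2 and Gsdmd, Pycard and Casp1, Casp4 and Ninj1, and Il18 and Nlrp3 overlapped. In fresh LIP cells Nlrc3 again came first at 36.9 ± 2.85 CPM per kb, and Casp1 (15.3 ± 2.83) lay above Pycard (11.1 ± 0.602) without overlap. In cultured cells Gsdmd (18.2 ± 0.271 CPM per kb in CTL, 18.4 ± 1.12 in LIP) and Casp4 (17.7 ± 7.56 and 22.9 ± 5.66) led with overlapping ranges, Nlrc3 was at rank 4 (11.6 ± 0.481 and 9.02 ± 1.45), and Casp1 at rank 7 (5.55 ± 2.08 and 3.93 ± 0.606). Divided by the length of all merged exons instead, Nlrc3 was again first on day 0 in both groups and Gsdmd again first in CTL on day 2, whereas in LIP on day 2 Gsdmd was first in place of Casp4. Other ranks depended on the length used as well. Per merged exon length, Casp1 lay below Pycard in fresh LIP cells without overlap (means of 7.46 and 10.8 CPM per kb). Aim2, with 6574 bases of merged exons and a canonical transcript of 2079 bases, was then at rank 5 in all 4 groups, and on day 2 Casp4 was at rank 4 in CTL (4.86 CPM per kb) and rank 3 in LIP (6.28 CPM per kb).

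**Figure D3:**
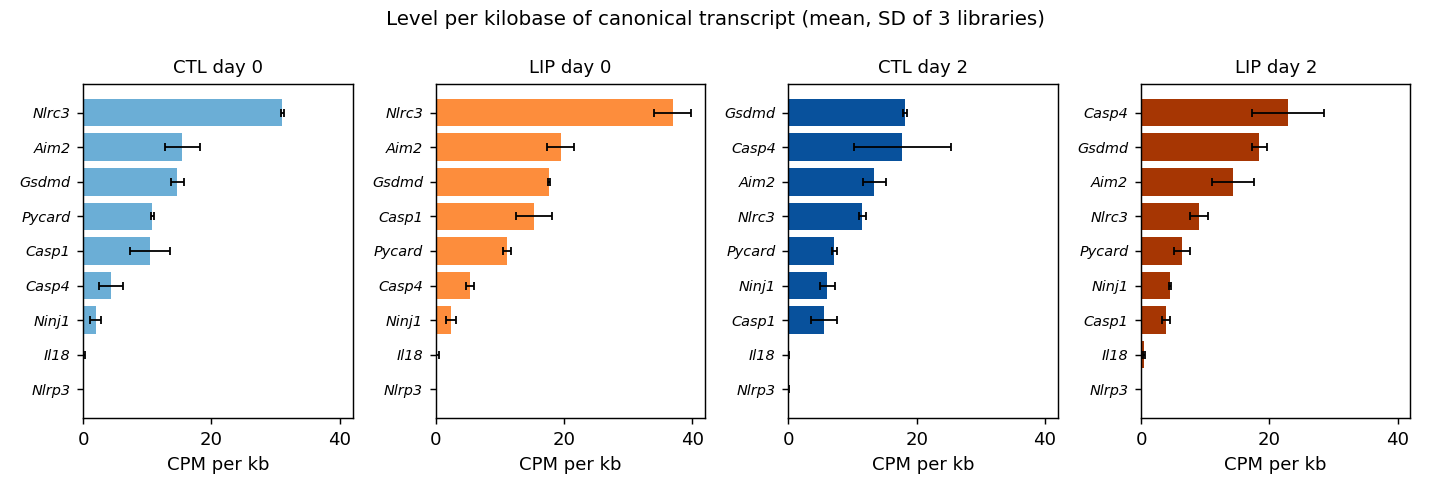
Mean level of the 9 genes in CPM per kb of canonical transcript (horizontal axis from 0, bars with SD of 3 libraries), sorted within each group. Nlrc3 leads on day 0 at 31.1 (CTL) and 36.9 (LIP) CPM per kb, and Gsdmd and Casp4 lead on day 2.

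For LIP against CTL on day 0, the log2 fold changes of the 7 genes were all above 0, with a median of 0.32 against 0.01 over all 14064 genes tested. Gsdmd and Nlrc3 (2 of 7) were higher in LIP without overlap and 0 were lower, whereas among all genes 9.66% were higher and 9.54% lower in that way. The earlier results behind the choice used these libraries, so nothing is read from the counts. Other marker genes lay apart between the same libraries, since the 5 activation genes summed to 431 to 443 CPM in LIP against 507 to 667 CPM in CTL, although the genes did not move together. Of the 5, 2 were lower in LIP without overlap (Cd69 by 0.90 on the log2 scale) and 1 was higher, namely Il2ra, at 101.0 to 106.9 CPM in LIP against 77.6 to 91.3 CPM in CTL. The regulatory T cell genes, which include Il2ra, summed higher in LIP, as given above. Their part in the day 0 values was not tested. On day 2 the median was -0.16 against -0.01 over all 14041 genes, and 0 of 7 genes had an adjusted p under 0.05 with edgeR or DESeq2, where edgeR called 0.0% of all genes and DESeq2 called 2.08% higher and 1.23% lower. At an unadjusted p under 0.05 edgeR named 1 of the 7 (Nlrc3) and 16.5% of all genes. Nlrc3 and Ninj1 (2 of 7) were lower in LIP without overlap and 0 were higher, where 11.3% of all genes were lower and 9.99% higher in that way.

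Culture moved most genes of the cell. In CTL, 6 of the 7 genes passed the test, 3 of them higher on day 2 (Casp4, Ninj1 and Gsdmd) and 3 lower (Nlrc3, Pycard and Casp1). Among all 14621 genes, 36.2% were called higher and 34.7% lower, and 37.7% were higher and 37.1% lower without overlap between the days. In LIP, 6 of the 7 passed as well, with Casp4 and Ninj1 higher and Nlrc3, Casp1, Pycard and Aim2 lower, against 36.1% of all 14310 genes called higher and 35.4% called lower (37.9% and 38.4% without overlap). The share of the 7 genes was thus near that of all genes. Earlier results had shown Aim2, Casp1 and Gsdmd higher in the fresh LIP than in the fresh CTL libraries. These fresh libraries are the baselines of both comparisons, so the changes in neither group are independent of the choice. Of all genes, 14.4% moved further than Casp4 in CTL and 13.2% in LIP, and 24.6% and 13.4% moved further than Nlrc3. In these bulk libraries, fewer cells of a type and less RNA per cell cannot be told apart, and the day cannot be told apart from the culture or from the library numbers, which the days do not share within a group.

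**Figure D4:**
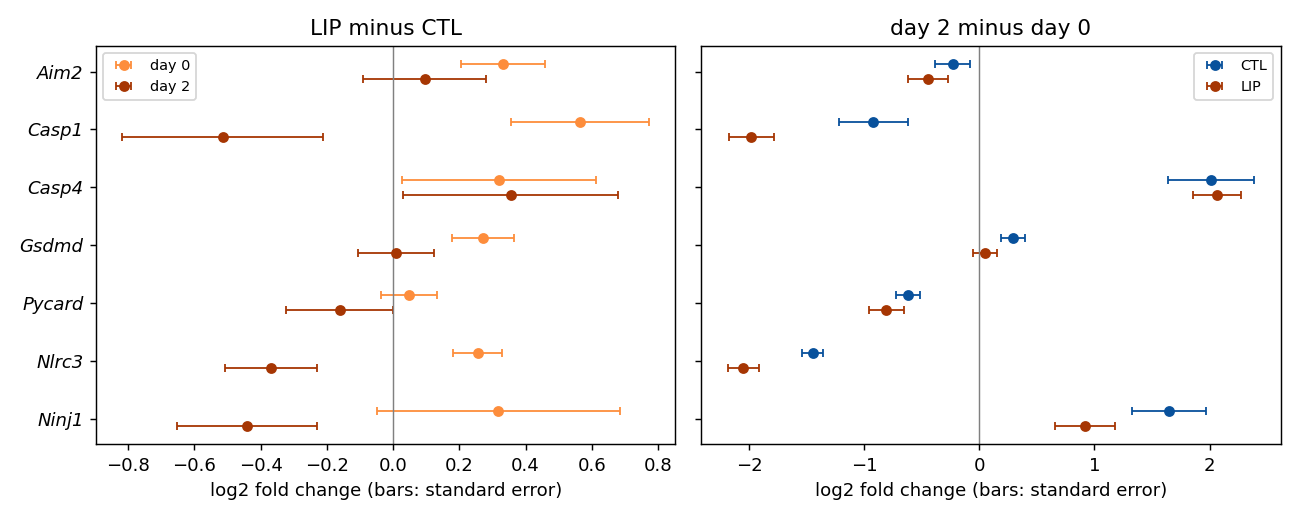
Log2 fold change (horizontal axes, bars with standard error) of the 7 genes for LIP minus CTL on each day (left) and for day 2 minus day 0 in each group (right). The day 0 values of LIP minus CTL are all above 0 (0.05 to 0.56), the day 2 values lie on both sides (-0.52 to 0.36), and the culture changes span -2.05 to 2.07.

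Genes of the interferon response had higher sums in LIP on day 2. The filtered edgeR fit of all day 2 libraries alone called none of them, but other edgeR fits did. Several of the 9 genes are known to respond to interferons. The 15 interferon-stimulated genes listed as markers summed to 1457, 1725 and 2265 CPM in LIP 90, 96 and 97 on day 2 and to 1052, 871 and 1071 CPM in CTL 92, 93 and 97. On day 0 the sums were 807 to 887 CPM in LIP and 823 to 855 CPM in CTL. On day 2, 11 of the 13 tested were higher in LIP without overlap (median log2 fold change 2.49), where 9.99% of all genes were. After adjustment the filtered edgeR fit of the day 2 libraries called 0 of them, whereas 13 had an unadjusted p under 0.05, as did 16.5% of all genes. With all 12 libraries in 1 fit, edgeR called 12 of the list higher, where it called 2.88% of all genes higher. Without a filter on low counts it called 13 of the list higher, among 409 genes called higher in all. Without LIP 90 edgeR called 12 of the list higher, where it called 7.74% of all genes higher, and DESeq2 called 12 higher with all libraries, where it called 2.08% of all genes higher. Between the same libraries Aim2, Casp1, Casp4 and Gsdmd differed by 0.09, -0.52, 0.36 and 0.01 on the log2 scale. Casp4 had the same order as the sum among the cultured LIP libraries (24.9, 32.9 and 41.2 CPM), but CTL 92 reached 34.8 CPM with a sum of 1052 CPM. CTL 97, with the highest sum of the cultured CTL libraries (1071 CPM), had the lowest Casp4 level (13.5 CPM). Myeloid markers summed to 21.4 to 52.1 CPM in LIP on day 2 against 6.21 to 11.8 CPM in CTL, most of it Mpeg1 (16.2 to 47.8 CPM in LIP), while S100a8 and S100a9 were at 0. Cd68, the other myeloid gene tested on day 2, was at 1.43 to 3.00 CPM in LIP against 2.61 to 4.02 CPM in CTL. The part of either list in the values of the 9 genes was not tested.

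**Figure D5:**
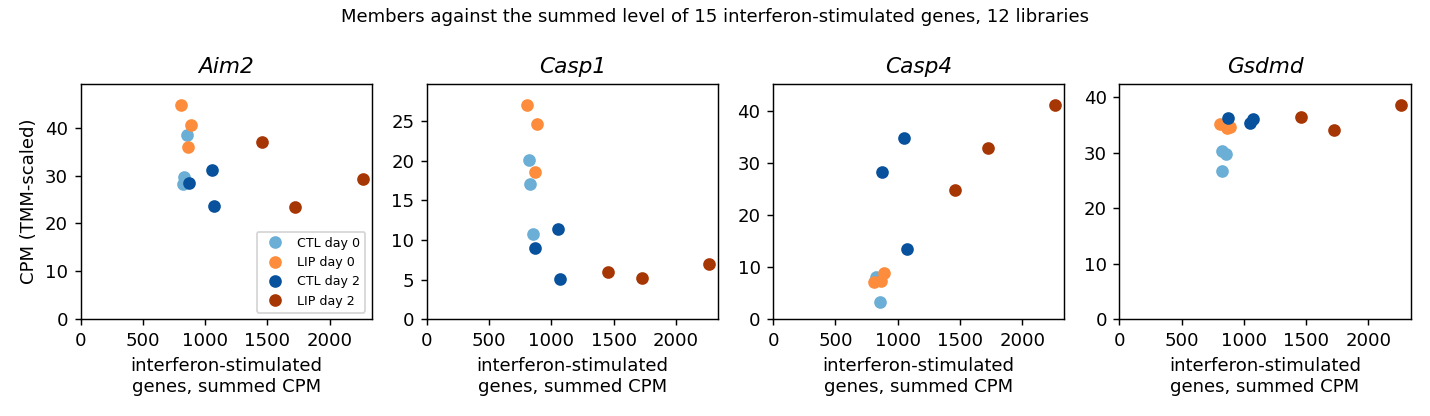
CPM of Aim2, Casp1, Casp4 and Gsdmd (vertical axes from 0) against the summed CPM of 15 interferon-stimulated genes (horizontal axes from 0), 1 point per library, coloured by group. The cultured LIP libraries lie furthest right (1457 to 2265 CPM), while their values of all 4 genes overlap those of the cultured CTL libraries.

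Other genes of the pathway were read from 4 lists of 12 genes each. Of the sensors, 5 were tested on day 0 and 3 on day 2. Nlrc4, the partner of the flagellin receptors, was at 3.07 ± 0.569 CPM (SD, n = 3) in fresh CTL and 0.670 ± 0.308 CPM in cultured CTL cells, and fell by 2.19 on the log2 scale in CTL and by 2.63 in LIP (edgeR adjusted p = 0.000499 and 9.09e-05). Naip2, which recognises the rod protein of bacterial secretion systems, fell by 1.41 and 1.51 (edgeR adjusted p = 0.00366 and 0.000156). Nlrc5, the activator of MHC class I genes, fell by 0.45 in CTL (adjusted p = 0.00414), and its log2 fold change in LIP was -0.24 (adjusted p = 0.227). In all, 3 of 4 sensors tested fell in CTL and 2 of 4 in LIP, and 0 rose, where 34.7% of all genes fell and 36.2% rose in CTL and 35.4% fell and 36.1% rose in LIP. With so few sensors and so many genes called, nothing is read from these counts. Among the myeloid markers, those that fell in the same comparisons as Nlrc4 included Itgam (log2 fold changes -5.52 in CTL and -4.17 in LIP) and Csf1r (-2.77 and -1.59), whereas Mpeg1 rose (1.72 and 3.79) and so did Cd68 in CTL (1.39), so that 2 myeloid genes fell and 2 rose in CTL and 3 fell and 1 rose in LIP. The part of myeloid cells in the fall of Nlrc4 was not tested. Nlrp1a had 1 count in the 12 libraries together and Nlrp1b had 43, too few to test.

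Of the regulators, 10 were tested between the days, and 4 rose and 1 fell in CTL, and 5 rose and 2 fell in LIP, beside the same shares of all genes (36.2% and 34.7% in CTL, 36.1% and 35.4% in LIP). Txnip, a partner of NLRP3 that is high in resting cells, fell by 4.39 on the log2 scale in CTL and fell by 3.49 in LIP (edgeR adjusted p = 3.56e-09 and 2.80e-06). The guanylate-binding proteins Gbp2 and Gbp5, which open microbial membranes for caspase-11, rose by 2.42 and 2.36 in CTL and by 3.40 and 2.70 in LIP (edgeR adjusted p between 4.50e-08 and 3.20e-06). Nek7, an NLRP3 cofactor, rose by 1.00 in CTL and 0.65 in LIP (edgeR adjusted p = 2.22e-05 and 0.000344), and Card19 fell by 0.84 in LIP (adjusted p = 0.00905). Irgb10 was not found by that symbol in the count table.

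Of the executioners, 6 were tested between the days, and 4 rose and 1 fell in each group, beside 36.2% of all genes that rose and 34.7% that fell in CTL and 36.1% and 35.4% in LIP. Gzmb, the granzyme of cytotoxic lymphocytes, rose by 6.14 on the log2 scale in CTL and 5.90 in LIP, from 0.891 ± 0.719 to 64.5 ± 10.8 CPM in CTL (edgeR adjusted p = 3.03e-08 in CTL). Chmp4b, a subunit of the machinery that repairs membrane pores, rose by 2.05 and 2.21 (edgeR adjusted p = 5.50e-08 and 1.06e-06). Gsdme, the gene of gasdermin E, fell by 0.47 and 0.63 (edgeR adjusted p = 0.00359 and 0.00311).

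Of the interleukin-1 family and its receptors, 7 were tested between the days in CTL, where 2 rose and 4 fell, and 8 in LIP, where 3 rose and 3 fell, beside 36.2% of all genes that rose and 34.7% that fell in CTL and 36.1% and 35.4% in LIP. Of the list, both chains of the IL-18 receptor fell the most. Il18r1 went from 123 ± 28.3 to 5.06 ± 0.346 CPM in CTL and from 186 ± 25.2 to 4.31 ± 1.79 CPM in LIP (log2 fold changes -4.63 and -5.43, edgeR adjusted p = 1.18e-08 and 1.14e-06). Il18rap, the second chain, went from 34.5 ± 13.2 to 1.54 ± 0.345 CPM in CTL and from 65.3 ± 12.7 to 1.48 ± 0.605 CPM in LIP (-4.49 and -5.46, adjusted p = 8.92e-07 and 1.23e-06). Of the 7 effector or memory T cell genes 5 fell in each group as well (Cxcr6 with log2 fold changes of -2.19 in CTL and -2.68 in LIP) and 1 rose (Cd44 with 1.73 and 1.23), and of the NK cell genes 2 of 2 tested fell in CTL and 3 of 4 in LIP (Eomes with -2.18 and -1.44). The part of either kind of cell in the fall of the receptor was not tested. Il18bp, whose product binds free IL-18, fell by 1.33 and 1.12 (edgeR adjusted p = 1.38e-05 and 5.21e-05). The decoy receptor Il1r2 rose by 4.61 and 4.42 (edgeR adjusted p = 1.40e-06 and 6.17e-05), and the antagonist Il1rn by 3.34 in LIP (adjusted p = 0.000323). The nuclear protein gene Hmgb1, whose product leaves ruptured cells, rose by 0.83 and 1.40 (edgeR adjusted p = 2.62e-05 and 0.000319). Il1b had 9 counts in the 12 libraries together.

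Between LIP and CTL on day 0 the list genes are described without a test as well, since the lists were chosen with earlier results known. Il18r1 was 0.60 higher in LIP on the log2 scale, and Il18rap 0.94 higher, whereas Txnip differed by -0.30 and Hmgb1 by -0.31. Both receptor genes varied in fresh CTL cells (123 ± 28.3 and 34.5 ± 13.2 CPM, mean and SD). CTL 89 had the lowest day 0 sums of effector or memory T cell genes (515 CPM) and of NK cell genes (13.1 CPM). The part of these cells in the differences was not tested. On day 2, edgeR called 0 genes of the 4 lists after adjustment. An unadjusted p under 0.05 was reached by 0 of 3 sensors, 4 of 10 regulators, 1 of 7 executioners and 0 of 8 genes of the interleukin-1 family, beside the 16.5% of all genes given above. DESeq2 called Gbp2 and Gzmb higher and Nek7 lower in LIP, where it called 2.08% of all genes higher and 1.23% lower. The same 3 genes were among those called by edgeR with all 12 libraries in 1 fit (2.88% of all genes higher and 2.13% lower) and without LIP 90 (7.74% and 6.19%). Gbp2 differed by 0.77, Gzmb by 1.04 and Nek7 by -0.42 (edgeR adjusted p = 0.150, 0.0997 and 0.150). The NK cell genes Klrk1 and Eomes differed in the same direction as Gzmb, by 1.91 and 0.91 without overlap (edgeR adjusted p = 0.119 and 0.274). The other NK cell genes, Ncr1 and Klrb1c, had 6 and 8 counts in the 3 cultured LIP libraries together and were not tested on day 2, and the part of NK cells in the level of Gzmb was not tested.

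For each of the 7 genes, the genes with the most similar course were found among 11765 genes with at least 10 counts in every library, as the mean absolute difference of centred log2 CPM over the 12 libraries. The nearest was Ikbke for Nlrc3 (0.0889 log2 units), Wls for Casp1 (0.171) followed by Rora (0.193), Fuca2 for Casp4 (0.221) followed by Grn (0.223), Hbs1l for Gsdmd (0.0692), Dgkz for Pycard (0.0706), Myo1g for Aim2 (0.128) and Lgalsl for Ninj1 (0.210). These genes are named as a description of 12 libraries that share their groups.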

How the data were processed

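The 12 libraries were made from RNA of CD4+ T cells of the spleen. Per the paper's methods and the submitters' processing notes, the authors checked reads with FastQC 0.11.9, trimmed them with Trimmomatic 0.38 (the methods name another version), aligned them to GRCm39 and deposited one table of expected counts without normalization, with RSEM 1.3.0 and Bowtie2 named as tools. The libraries were rRNA-depleted and directional, but the strand setting and the annotation release are not given in the sources used here. The reads of BALB/c mice were compared with a C57BL/6J genome. The authors' per-day tables also hold 8 columns of log2 fold changes, p-values and the like, which were not used, and 2 per-library columns that match no labelled sample were left out.

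Expected counts were rounded to whole numbers and tested in R 4.3.3 with edgeR 4.0.16 (filterByExpr, TMM, quasi-likelihood test), on all genes, for LIP against CTL on each day, day 2 against day 0 in each group and their interaction. The Benjamini-Hochberg adjustment ran over all genes tested, with a threshold of 0.05. CPM were scaled by TMM over 12 libraries. Standard errors were the log2 fold change divided by the root of the test statistic. Alternatives were RLE normalization, no filter, at least 10 counts in every library, DESeq2 1.42.0, 1 fit of all libraries and leaving out each library. Division by merged exon length was chosen after seeing the data. Positions and lengths came from GENCODE M39, which also gave the identifier of Nlrp3. The scripts were tested on simulated data. The named genes were the 9 genes, for each list the up to 4 genes with the largest change among those called plus Gsdme, Il1b, Nlrp1a, Nlrp1b and Nlrc4, and up to 3 nearest genes per member, not all of which are printed; some genes of the lists are not reported here. Genes named for DESeq2 calls, from the marker lists or as not found were added after their values were seen. The genes and lists were chosen with earlier results of these data known. Tables and figures were made in Python 3.11.15 with pandas 2.3.3, numpy 2.4.6 and matplotlib 3.10.9.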

Additional observations from a re-analysis of the deposited data

Results flagged for a closer look

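Nlrc3 stood out because every LIP library lay above every CTL library on day 0 (205 to 239 against 185 to 187 CPM) and below every CTL library on day 2 (44.6 to 61.6 against 66.2 to 71.8 CPM). The LIP minus CTL difference changed by -0.61 on the log2 scale between the days (standard error 0.16), and this difference was not tested, since the day 0 values were known when the genes were chosen. Of 12946 genes tested on both days, 291 (2.25%) had groups that lay apart in opposite directions on the 2 days, 147 of them in the same directions as Nlrc3.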

How the results depend on the processing

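No paired analysis was run, since the groups compared within a day share only 1 library number and those compared between days share none. LIP of day 0 and CTL of day 2, which were not compared, share the numbers 92 and 93, and a fit of all 12 libraries with the number as a block was not run. The number of genes called between LIP and CTL on day 0 (60) was 645 without a filter, 208 with DESeq2, 12 in 1 fit of all libraries, and 13 to 658 on leaving out single libraries, the highest without CTL 94. On day 2 (0) it was 662 without a filter, 1 with at least 10 counts, 489 with DESeq2, 775 in 1 fit of all libraries, and 0 to 2014. For the interaction (8) it was 815 without a filter, 543 with DESeq2, and 1 to 1596, the highest without LIP 90. Between the days the counts (10355 in CTL and 10229 in LIP) stayed within 1.5 times. Of the 7 genes with enough counts, 0 were called between LIP and CTL on day 2 with edgeR or DESeq2 in any of these fits. On leaving out libraries, 4 to 6 of the 7 were called between the days in CTL and 5 to 6 in LIP. Il18 and Nlrp3 were not part of these counts in any fit. The sign changed for Casp4 on day 0 (0.3191, and -0.0149 without CTL 89), for the interaction of Casp4 (0.047, and -0.2542 to 0.3826 over single libraries left out), and for values near 0, namely Aim2 on day 2 (-0.0638 without LIP 90 to 0.2558, with -0.0025 without CTL 97), Gsdmd on day 2 (-0.0002 with at least 10 counts, -0.0036 without CTL 92, and -0.0327 to 0.0662 over single libraries left out) and Gsdmd between the days in LIP (-0.0048 with at least 10 counts). The cause was not tested. Il18 and Nlrp3 had too few counts at this depth to be tested.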
